A study of Mus musculus with 7 samples.

Results

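The genes described here are 10 genes that activated microglia and macrophages are known to express at high level: Trem2, Tyrobp, Apoe, Lpl, Spp1, Gpnmb, Cd68, Adgre1, Aif1 and Mrc1. They were taken from a table of 24346 genes by symbol and not by a threshold on their values, and all 10 were present. The choice of genes was made with earlier results of these data known. RNA was sequenced from primary neurospheres, the floating clusters that hippocampal neural stem cells (NSCs) form in culture, after 8 days in culture, in 7 libraries of 1 mouse each. The 3 Med23 CKO libraries (mice KO_117, KO_214 and KO_218) came from Nestin-CreER:Med23 flox/flox mice, and the 4 control libraries (mice WT_215, WT_116, WT_213 and WT_220) came from littermates, which the labels call wild type and the study's methods describe as Med23 flox/+ or Med23 flox/flox. All mice were C57/BL6, 2 months old at culture, and all had received tamoxifen (200 mg/kg, by mouth on 5 days), so the drug is shared by both groups. The sources give 2 ages for that treatment, and no sex is labelled. In the Med23 CKO mice the Nestin promoter drives Cre, so the deletion is aimed at NSCs and their progeny and not at microglia, which descend from the yolk sac. The paper states that endothelial cells also express this Cre. The methods name the control genotypes without Nestin-CreER, and the labels give no Cre status. If the controls lack it, effects of Cre and of the deletion cannot be told apart.

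Microglia are the resident macrophages of the brain. Trem2 is a surface receptor for lipids, apolipoproteins and cell debris, and it signals through the adaptor protein Tyrobp and the kinase Syk. Microglia that take up debris through this receptor lower the genes of the resting state and raise genes for lipid handling, lysosomes and secreted matrix proteins, among them Apoe, Lpl, Spp1, Cd68 and Gpnmb. Several of these genes are also made by other cells, such as Apoe by astrocytes.

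The libraries held the RNA that the label NSC calls for. Fabp7, Vim, Nes and Sox2, which mark neural stem and progenitor cells, were detected in all 7, with Sox2 at 69.4 to 194 FPKM and Nes at 61.1 to 240.5 FPKM. FPKM is the number of sequenced fragments of a gene scaled by its transcript length and by the size of the library. Med23 stood at 8.12 to 9.97 FPKM in the Med23 CKO libraries and at 10.1 to 12.9 FPKM in the controls. Library KO_214 stood apart: its 10 most abundant genes took 12.2% of the summed FPKM, against 5.12% to 8.61% in the other 6, and the comparisons of Med23 CKO with control that rest on it are also given without it.

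Trem2 lies on the plus strand at chr17:48346401-48354147 (GRCm38, as for all coordinates here) and Tyrobp on the plus strand at chr7:30413760-30417585. Values are listed in the order of mice given in the opening. Trem2 measured 8.70, 21.1, 33.4 and 5.02 FPKM across the 4 controls, against 5.13, 141 and 16.4 FPKM across the 3 Med23 CKO libraries. Tyrobp measured 39.0, 77.3, 109.5 and 14.3 FPKM in the controls and 16.0, 492 and 79.7 FPKM in the Med23 CKO libraries. Receptor and adaptor thus followed one course: KO_214 was far above the rest, KO_117 and WT_220 were lowest, and KO_218 lay inside the control range. The log2 fold change of Med23 CKO over control on the log2(FPKM + 1) scale was 0.77 ± 1.07 (SE) for Trem2 and 0.87 ± 1.14 (SE) for Tyrobp, in each case smaller than its error. In bulk RNA, fewer cells of a type and less RNA per cell cannot be told apart, and this holds for every gene below.

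Apoe encodes the main lipid carrier protein of the brain and lies on the minus strand at chr7:19696109-19699188. It measured 403, 712, 594 and 189 FPKM in the controls and 135, 1674 and 461 FPKM in the Med23 CKO libraries. Apoe had the narrowest range of the 10 genes, 12.4-fold from the lowest library to the highest, and its log2 fold change was the smallest, 0.15 ± 0.83 (SE). Lpl encodes lipoprotein lipase, which releases fatty acids from lipoproteins, and lies on the plus strand at chr8:68880491-68907448. Its values were 16.3, 33.6, 64.3 and 10.9 FPKM in controls and 15.4, 251 and 54.4 FPKM in Med23 CKO. Lpl had the largest log2 fold change of the 10, 1.23 ± 0.95 (SE), and KO_218 lay between controls WT_116 and WT_213.

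Spp1 encodes osteopontin, a secreted phosphoprotein that cells bind through integrins, on the plus strand at chr5:104435118-104441050. Spp1 measured 329.9, 922, 644 and 97.6 FPKM in controls and 69.9, 5419.7 and 733 FPKM in Med23 CKO. It spanned 77.6-fold, the widest range of the 10 genes, and in KO_214 it was the gene with rank 3 of all 24346 by FPKM, whereas in KO_117 its rank was 1366. The annotated gene Gm42793 overlaps Spp1 on the same strand, so reads shared between them could be split. Gpnmb, a transmembrane glycoprotein of lysosome-rich phagocytes, lies on the plus strand at chr6:49036546-49070929. It measured 52.3, 82.5, 125 and 12.7 FPKM in controls and 18.0, 595 and 77.8 FPKM in Med23 CKO, and thus was close to Tyrobp in every library. Cd68, a lysosomal membrane glycoprotein of macrophages, lies on the minus strand at chr11:69664213-69666153. Its values were 23.2, 38.2, 50.3 and 9.70 FPKM in controls and 9.49, 259 and 42.1 FPKM in Med23 CKO, with KO_117 and WT_220 nearly level at the bottom.

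The last 3 genes are used as markers of macrophage identity. Adgre1, an adhesion receptor that marks mouse macrophages, lies on the plus strand at chr17:57358691-57483527 and measured 6.15, 9.31, 20.4 and 2.93 FPKM in controls and 3.53, 126 and 10.6 FPKM in Med23 CKO. KO_214 exceeded the next library 6.19-fold for Adgre1, the largest such gap of the 10. Aif1 encodes the calcium-binding protein Iba1, the usual stain for microglia, on the minus strand at chr17:35170991-35176068. It was low, at 0.376, 3.59, 4.59 and 0.511 FPKM in controls and 0.297, 16.7 and 2.30 FPKM in Med23 CKO. Mrc1, the mannose receptor of perivascular and alternatively activated macrophages, lies on the plus strand at chr2:14229392-14332057 and contains the microRNA gene Mir511. Mrc1 was the lowest of the 10, at 0.423, 1.57, 1.14 and 0.115 FPKM in controls and 0.153, 6.25 and 0.738 FPKM in Med23 CKO, and only 3 libraries exceeded 1 FPKM.

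**Figure D1:**
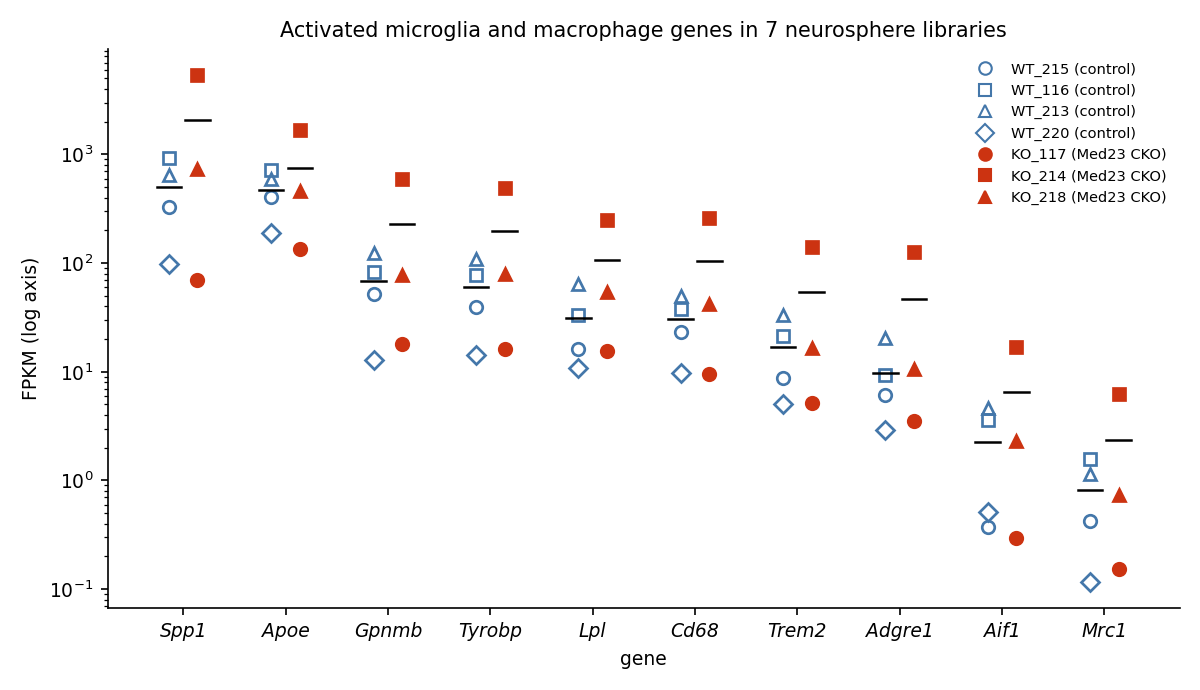
FPKM of each of the 10 genes on a log axis, with 1 point per library (open symbols control, filled symbols Med23 CKO). Library KO_214 is highest for all 10 genes, KO_117 or WT_220 is lowest, and KO_218 sits among the controls.

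The promoters of the 10 genes were also read for shared motifs. RefSeq promoter windows (GRCm38.p6, 250 bases before to 50 bases after the transcription start) were at hand for 7 of the 10 genes. Of 3 motifs searched on both strands, TGANTCA, bound by AP-1 factors, was in the windows of 3 genes (Cd68, Gpnmb and Trem2), where 8.97% of all 27025 genes have it. GAGGAAGT, bound by the macrophage factor PU.1, was in that of 1 gene (Spp1), where 3.69% of all genes have it. CACGTG, bound by MITF and TFE factors, was in none, where 8.09% have it, which says only that these letters are not in these windows. The 4 stretches are shown because they hold a match. They are written 5′ to 3′ on the strand of the gene, and capitals mark the motif. They lie at chr17:48346251-48346400 on the plus strand (Trem2), chr11:69666171-69666320 on the minus strand (Cd68), chr6:49036368-49036537 on the plus strand (Gpnmb) and chr5:104434961-104435110 on the plus strand (Spp1).
Trem2: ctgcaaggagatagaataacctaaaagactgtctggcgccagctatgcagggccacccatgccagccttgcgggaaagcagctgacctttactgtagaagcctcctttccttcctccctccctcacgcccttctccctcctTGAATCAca
Cd68: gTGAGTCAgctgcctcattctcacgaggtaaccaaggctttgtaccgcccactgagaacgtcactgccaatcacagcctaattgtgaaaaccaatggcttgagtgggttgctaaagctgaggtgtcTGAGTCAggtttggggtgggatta
Gpnmb: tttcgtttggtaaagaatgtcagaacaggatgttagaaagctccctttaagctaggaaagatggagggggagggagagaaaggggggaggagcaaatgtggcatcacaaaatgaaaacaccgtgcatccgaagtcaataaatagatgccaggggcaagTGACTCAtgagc
Spp1: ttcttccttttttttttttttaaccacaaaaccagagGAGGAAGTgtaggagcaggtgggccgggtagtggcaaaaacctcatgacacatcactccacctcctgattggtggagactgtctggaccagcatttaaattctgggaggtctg
The match begins 9 bases before the start in Trem2, 149 and 24 bases before it in Cd68, at transcribed base 9 in Gpnmb and 113 bases before the start in Spp1. A match of letters is a description of the window and not evidence that a factor binds there.

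By level per transcript length, the genes fell into tiers that the spread between control mice did not always separate. Spp1 (498 ± 360 FPKM, SD, n = 4) and Apoe (475 ± 229) did not differ beyond their spread in controls, and the same was true of Gpnmb (68.1 ± 47.4) and Tyrobp (60.0 ± 42.0) and of Lpl (31.3 ± 24.1) and Cd68 (30.3 ± 17.7). Trem2 (17.1 ± 12.9) and Adgre1 (9.70 ± 7.59) overlapped between mice, but within a library Trem2 was above Adgre1 in all 7. Aif1 (2.27 ± 2.15) and Mrc1 (0.812 ± 0.663) were at the bottom. In Med23 CKO the SD exceeded the mean for each gene: Spp1 was 2074 ± 2916 FPKM (SD, n = 3), Apoe 757 ± 811 and Trem2 54.3 ± 75.6. Summed over the 10 genes, FPKM was 879, 1902, 1646 and 343 in the controls and 273, 8980 and 1478 in Med23 CKO. The lowest and the highest sums of the study thus both came from Med23 CKO mice.

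The 10 genes were among the more variable of the transcriptome across mice. Their SD of log2(FPKM + 1) over the 7 libraries ran from 0.93 for Mrc1 to 2.11 for Spp1, against a median of 0.37 over the 14151 genes tested (those with a mean of at least 0.5 FPKM), and Spp1 ranked 32 of these. Without KO_214 the SD was 0.49 for Mrc1 to 1.58 for Spp1, against a median of 0.34, and Spp1 ranked 88. KO_214 was the highest library for 10 of the 10 genes, whereas it was highest for 25.4% of all genes tested. Relative to the control mean, KO_214 stood 3.53-fold (Apoe) to 13.01-fold (Adgre1) higher, with a median of 8.24 over the 10 genes against 0.99 over all genes tested. KO_117 stood at 0.131 to 0.493 of the control mean and KO_218 at 0.910 to 1.74. Within the controls alone, the highest mouse exceeded the lowest by 3.77-fold for Apoe and up to 13.7-fold for Mrc1.

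The comparison of Med23 CKO with control asked whether deletion of Med23 changed the level of these genes in neurospheres. It found no difference beyond the spread between mice. The groups overlapped for all 10 genes, where 2.32% of all genes tested had groups that did not overlap (0.784% with Med23 CKO higher and 1.53% with it lower). None of the 10 had an unadjusted p under 0.05 in limma's moderated test on log2(FPKM + 1), where 1.5% of all genes tested did (0.502% higher and 0.996% lower in Med23 CKO), and after Benjamini-Hochberg adjustment no gene of the whole table passed. The adjusted p by limma was 0.9999 for each of the 10, and the unadjusted p ran from 0.234 for Lpl to 0.859 for Apoe. The exact two-sided permutation test over the 35 splits of the mice, which cannot go below 0.0286, gave p = 0.371 for Lpl and p = 0.943 for Apoe, with the others between them.

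All 10 point estimates were higher in Med23 CKO, where 43.8% of genes tested had the higher mean there, but the direction rested on KO_214. Without that library the log2 fold changes were negative for 9 of the 10 genes, from -0.76 for Apoe to -0.28 for Mrc1, and Lpl stayed positive at 0.21. Without KO_117 they ran from 1.05 for Mrc1 to 2.42 for Spp1, and Lpl reached an unadjusted p of 0.032 (adjusted p by limma 0.596, with 0.596 to 1 the range of the smallest adjusted p of the 10 genes over the settings that fitted all 10, covariate fits with a library left out not included). Without control WT_220, Apoe turned to -0.23 while the other 9 remained positive. The 95% intervals of the log2 fold change were correspondingly wide, from -1.74 to 3.28 for Trem2, from -1.79 to 2.10 for Apoe and from -0.97 to 1.98 for Mrc1, so that a change of more than 1 log2 unit in either direction lay within the intervals of Trem2 and Apoe.

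**Figure D2:**
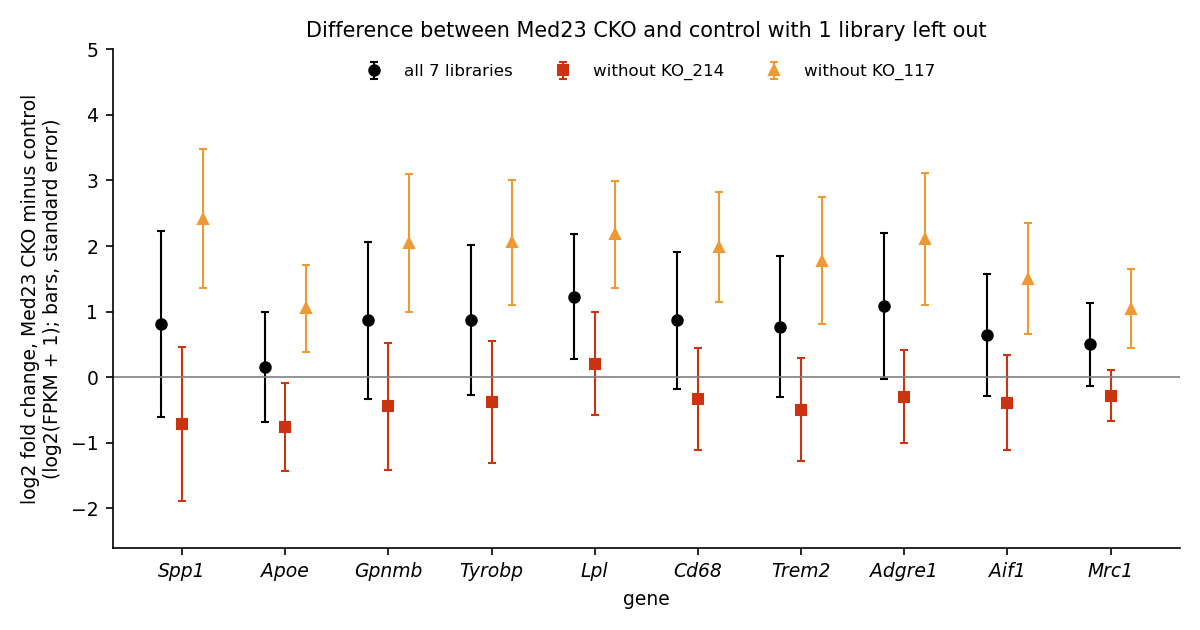
Log2 fold change (Med23 CKO minus control, log2(FPKM + 1) scale) of each gene with all 7 libraries, without KO_214 and without KO_117 (bars, SE). Without KO_214 the estimate is below 0 for every gene but Lpl (0.21), and without KO_117 it is above 1 for all 10.

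Across mice the 10 genes kept nearly one order. KO_214 was followed by WT_213 (7 genes) or WT_116 (3 genes), KO_218 came in place 3 or 4, and WT_215 in place 5 or 6. The lowest library was WT_220 for 6 genes and KO_117 for 4. Over the 45 pairs of these genes, Pearson's r of log2(FPKM + 1) across the 7 libraries was 0.885 to 0.996, with a median of 0.963, and without KO_214 it was 0.758 to 0.997, with a median of 0.927. These values describe 7 libraries that share their cells between genes, and the 10 genes are therefore not 10 separate observations of a mouse. High values were not rare: 574 genes (4.06% of those tested) had r of at least 0.95 with Tyrobp, as did all 9 other members, whereas 4 of the other members reached that value with Apoe.

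Ratios within a library removed most of this common course. Trem2 per Tyrobp was 0.223, 0.273, 0.305 and 0.351 in the controls and 0.320, 0.287 and 0.206 in Med23 CKO, a 1.71-fold range for genes that spanned 28.2-fold and 34.4-fold. Cd68 per Tyrobp ranged from 0.459 to 0.679 and Gpnmb per Tyrobp from 0.891 to 1.34, which are ranges of 1.48-fold and 1.503-fold. In KO_214 itself these 3 ratios lay inside the range of the other 6 libraries. Apoe per Tyrobp took a different course, at 10.3, 9.21, 5.42 and 13.2 in controls and 8.45, 3.40 and 5.78 in Med23 CKO. It was highest in WT_220, where Tyrobp was lowest, and lowest in KO_214, where Tyrobp was highest. Tyrobp is the denominator here and spanned 34.4-fold against 12.4-fold for Apoe, so this fall restates the narrower range of Apoe. Apoe itself rose with Tyrobp (Pearson's r of log2(FPKM + 1) 0.966). The mean ratios were 9.55 ± 3.24 (SD, n = 4) in controls and 5.88 ± 2.52 (n = 3) in Med23 CKO, and the groups overlapped (exact permutation test, two-sided, p = 0.171). Spp1 per Tyrobp ranged from 4.36 in KO_117 to 11.9 in WT_116, and Aif1 per Tyrobp varied most, from 0.00963 in WT_215 to 0.0464 in WT_116. For none of the 9 ratios did the groups separate, and the Apoe ratio had the smallest exact p of the 9, before any adjustment.

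**Figure D3:**
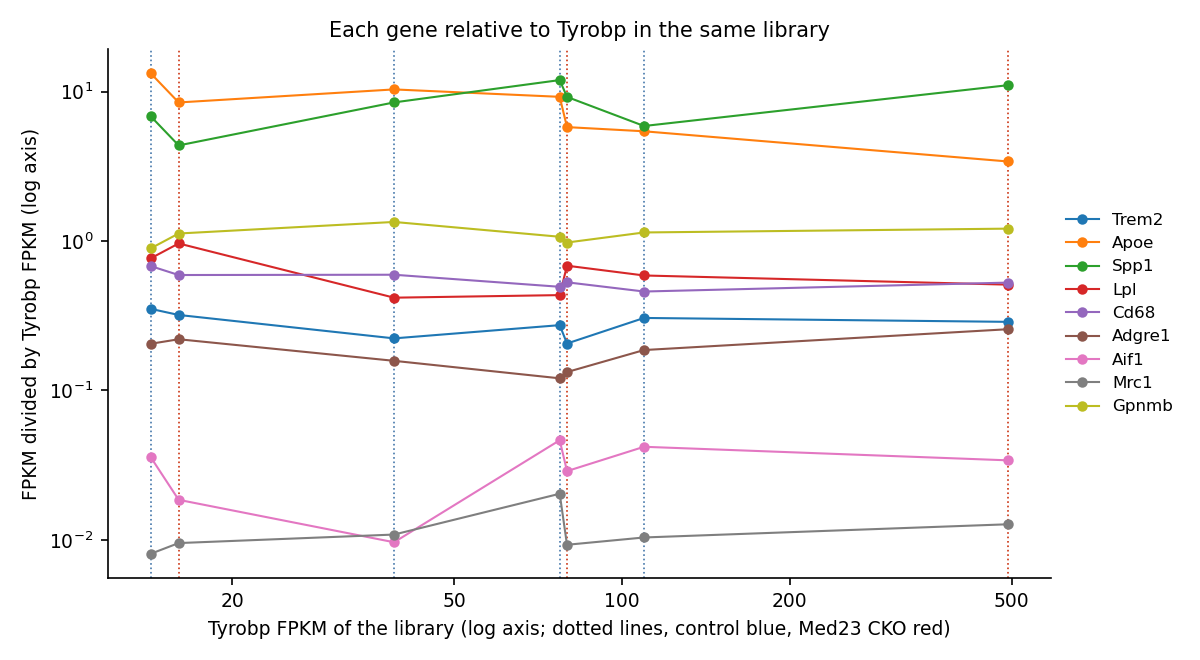
FPKM of 9 genes divided by the Tyrobp FPKM of the same library, against that Tyrobp FPKM (both axes log), with dotted verticals marking the 7 libraries (blue control, red Med23 CKO) and lines joining the points of a gene. Trem2, Cd68 and Gpnmb run nearly level over the 34.4-fold range of Tyrobp, whereas Apoe per Tyrobp goes from 13.2 in the library with least Tyrobp to 3.40 in the library with most.

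The genes outside the 10 whose course over the 7 libraries was most like that of each gene were taken by Pearson's r of log2(FPKM + 1). The nearest to Trem2 were Foxf2 (0.999), Plcg2 (0.997), a phospholipase, and Ncf1 (0.997), a subunit of the phagocyte oxidase. Atf3, Jak1 and Cd84 were nearest to Tyrobp (each 0.998). For Lpl they were the complement gene C1qb (0.999), Mpp1 and Itgb5, for Adgre1 Cd300a (0.999) and Ms4a7 (0.998), and for Cd68 Cd53 (0.998) and Plek (0.997). Spp1 ran with Ctsb, B2m and Hmox1 (each 0.997), which encode a lysosomal protease, the light chain of class I histocompatibility molecules and heme oxygenase. The nearest to Gpnmb was Mmp12 (0.997), the macrophage metalloelastase. Apoe had Ptk2b (0.998), Fgd3 and Tep1, none of which is a lipid carrier.

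Genes that mark the macrophage lineage moved with the 10, except Coro1a. All 12 listed (among them Ctss, Fcer1g and Laptm5) were highest in KO_214, at a median of 8.45 times the control mean, and their summed FPKM ran from 39.4 in WT_220 to 1028 in KO_214. None of the 12 had an unadjusted p under 0.05, and their median log2 fold change was 0.87. Without KO_214 it was -0.28, with 1 gene positive and 11 negative. Coro1a, which encodes an actin-binding protein of leukocytes, was at 11.7 FPKM in WT_220 and 12.4 FPKM in KO_117, above the 4.99 to 7.35 FPKM of WT_215, WT_116, WT_213 and KO_218. The cathepsin Ctss, the most abundant of them, measured 27.4, 59.7, 68.3 and 7.60 FPKM in controls and 7.76, 375 and 64.8 FPKM in Med23 CKO. With the mean of these 12 genes as a covariate, 8 of the 10 activated microglia genes had a negative log2 fold change, from -0.05 for Mrc1 to -0.60 for Apoe, and Adgre1 (0.06) and Lpl (0.37) a positive one. Apoe alone had an unadjusted p under 0.05 in that fit (-0.60 ± 0.25, SE, unadjusted p = 0.0465), with an adjusted p by limma of 0.9999 (0.566 to 1 with a library left out). Without KO_214 the value was -0.48 (unadjusted p = 0.110), without KO_117 it was -0.36 (0.376), without WT_215 -0.60 (0.0781) and without WT_116 -0.41 (0.0884), so this call was lost when any of these 4 libraries was left out, a repeat of the fit that was chosen after seeing the data.

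Of 24 genes of the Trem2 signaling route, 22 were tested, 19 had the higher mean in Med23 CKO, and 17 were highest in KO_214. Without KO_214, 7 of the 22 had a positive and 15 a negative log2 fold change. At an unadjusted p under 0.05, 1 gene was higher and 0 were lower, where 1.5% of all genes tested passed in either direction. That gene was Lyn, a Src family kinase, at 22.2, 17.7, 23.1 and 22.9 FPKM in controls and 39.1, 37.9 and 26.1 FPKM in Med23 CKO, which is a log2 fold change of 0.64 ± 0.20 (SE) without overlap of the groups (unadjusted p = 0.014, adjusted p by limma 0.9999). Groups that did not overlap were found for 2.32% of all genes tested. Lyn was highest in KO_117, where the 10 genes were low. With each library left out in turn its unadjusted p stayed between 0.0041 and 0.0488, and with libraries weighted by quality the log2 fold change was 0.35 (unadjusted p = 0.0667, adjusted p 0.594). Syk, the kinase that binds Tyrobp, named here after its values were seen, was at 2.74, 1.90, 3.24 and 4.27 FPKM in controls and 6.66, 17.5 and 3.19 FPKM in Med23 CKO, and did not pass (unadjusted p = 0.058, adjusted p by limma 0.9999). Its log2 fold change of 1.09 was 0.52 without KO_214 (unadjusted p = 0.183), and it had an unadjusted p under 0.05 without KO_218 (1.59, unadjusted p = 0.0088, adjusted p 0.9998) and with median centring (unadjusted p = 0.041, adjusted p 0.9999). Fyn, the most abundant of the list, was lowest in KO_214, at 67.0 FPKM, and highest in KO_117, at 255 FPKM.

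Genes of lipid and apolipoprotein handling were divided in direction. Of 20 listed, 19 were tested, 12 had the higher and 7 the lower mean in Med23 CKO, 0 passed at an unadjusted p under 0.05, and the median log2 fold change was 0.10, or -0.13 without KO_214. KO_214 was the highest library for 13 of the 20, against 25.4% of all genes tested, and the lowest for 2 of the 19 tested. Fabp5, a fatty acid binding protein, was highest in KO_117 and WT_220, at 878 and 817 FPKM, where the 10 genes were lowest. Npc2, which moves cholesterol out of lysosomes, was highest in KO_214, at 151 FPKM, against 48.2 to 101 FPKM elsewhere.

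The 20 genes listed for disease-associated microglia, an activated state, were all highest in KO_214, at a median of 5.08 times the control mean. All 19 of those tested were higher on average in Med23 CKO, 0 of them with an unadjusted p under 0.05, and without KO_214 all 19 had a negative log2 fold change, with a median of -0.35 and again 0 past that threshold. Fth1, the ferritin heavy chain, measured 5965, 16655, 11137 and 2134 FPKM in controls and 1417, 25727 and 11371 FPKM in Med23 CKO, and the lysosomal protease Ctsd 508, 857, 784 and 284 FPKM in controls and 241, 2920 and 671 FPKM in Med23 CKO. Cst7, often used as a marker of this state, reached no more than 0.812 FPKM.

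The genes of resting microglia were mostly near the floor, also where the 10 genes were high. Of 12 listed, 5 had a mean under 0.5 FPKM, among them Cx3cr1, the fractalkine receptor, and P2ry13. Cx3cr1 measured 0.106, 0.552, 0.782 and 0.0866 FPKM in controls and 0.109, 0.157 and 0.722 FPKM in Med23 CKO, so KO_214, with the most Trem2 and Tyrobp of all, was at 0.157 FPKM. The purinergic receptor P2ry12 stayed between 0.434 and 1.60 FPKM, and Tmem119 reached 4.04 FPKM in KO_214 and at most 0.414 FPKM elsewhere. Sparc, which other brain cells also express, was highest in KO_214, at 429 FPKM, whereas Sall1, a transcription factor that neural progenitors also express, was highest in KO_117, at 23.2 FPKM.

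Of 12 genes listed for border-associated macrophages, the macrophages of meninges and vessels, 6 were tested, and Cd163, Lyve1, F13a1, Cd209f and Clec10a were at 0.438 FPKM or less in every library. Ms4a7 and Stab1 were highest in KO_214, at 42.8 and 33.3 FPKM. The chemokine gene Pf4 measured 1.15, 1.47, 1.15 and 1.201 FPKM in controls and 7.55, 2.14 and 3.86 FPKM in Med23 CKO, with the highest value in KO_117 and no overlap of the groups (log2 fold change 1.18 ± 0.34, SE, unadjusted p = 0.0087, adjusted p by limma 0.9999). Without KO_117 the log2 fold change of Pf4 was 0.80 (unadjusted p = 0.016) and without KO_214 it was 1.53. Pf4 was the 1 gene of the list with an unadjusted p under 0.05. Of all genes tested, 1.5% passed that threshold and 2.32% had groups that did not overlap. Of the monocyte and neutrophil list, summed at 31.0 to 70.8 FPKM in 6 libraries and at 187 FPKM in KO_214, 3 genes were tested. Fn1, fibronectin, which many other cells make, was at 154 FPKM in KO_214 and at most 46.6 FPKM elsewhere, S100a8 at 17.2 against at most 1.98 FPKM, and Vcan at 13.7 to 25.8 FPKM over all libraries. Among the others, Ccr2 of monocytes reached at most 0.0688 FPKM, Elane of neutrophils was listed at 0 in all 7 libraries, and 10 genes of T, B and NK cells summed to 0.532 to 1.59 FPKM.

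Markers of other cells of the vessel wall also peaked in KO_214. All 10 endothelial genes were highest there, with Cldn5 at 27.1 FPKM against 1.82 to 23.9 FPKM elsewhere, and 9 of 10 mural and fibroblast genes were, with Acta2 at 178 FPKM against 3.01 to 54.3 FPKM. Summed FPKM was 14.8 to 145 for the endothelial list and 57.5 to 513 for the mural and fibroblast list. Astrocyte genes moved partly with the 10 (Gfap was 17.8 FPKM in WT_220 and 321 FPKM in KO_214). Of the NSC genes, 11 of 12 had the lower mean in Med23 CKO (8 of 12 had a negative log2 fold change without KO_214), none with an unadjusted p under 0.05, and Fabp7 was lowest in KO_214, at 203 FPKM against 463 to 1557 FPKM elsewhere. The 10 oligodendrocyte genes (1 with the higher and 9 with the lower mean in Med23 CKO) and the 9 neuron genes tested (3 and 6) had no member with an unadjusted p under 0.05. The part that other cell types in the culture had in the values of the 10 genes was not tested.

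**Figure D4:**
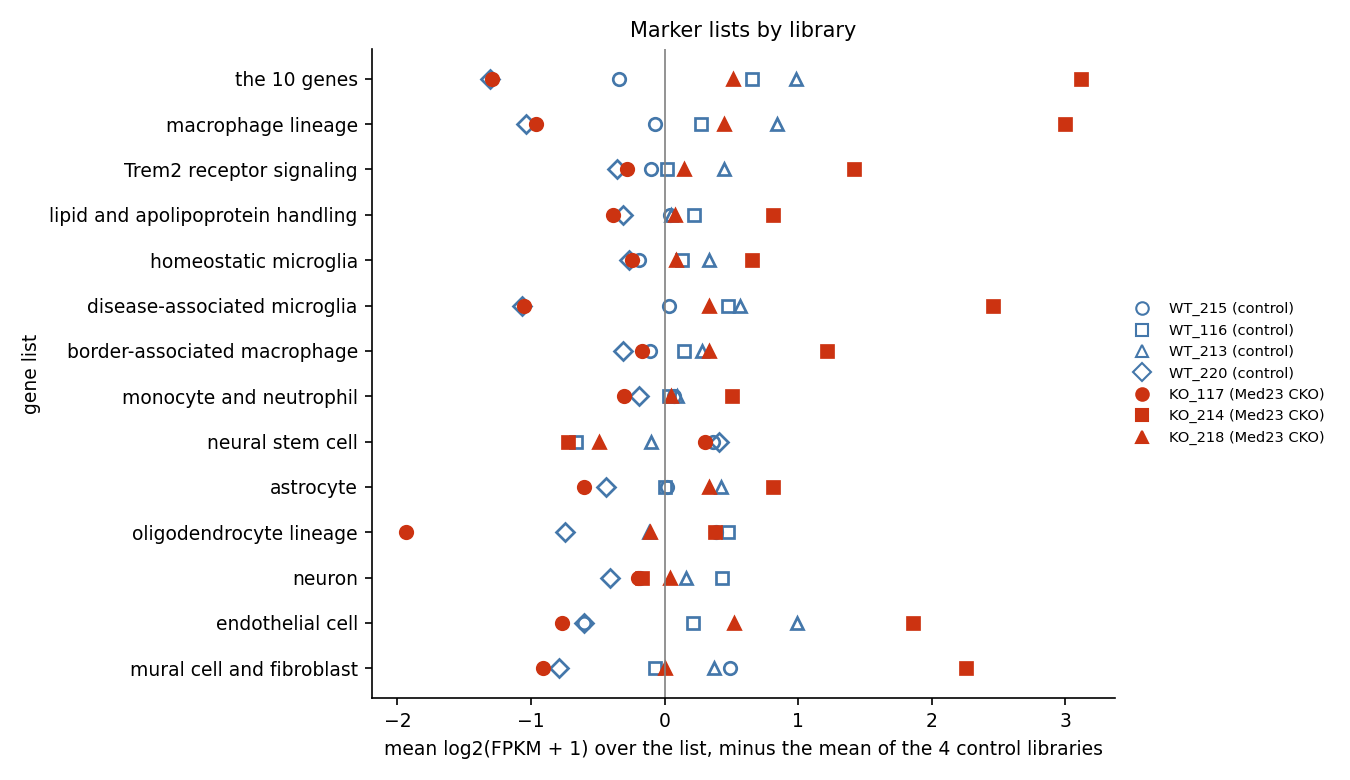
Mean log2(FPKM + 1) of each gene list in each library, minus the mean of the 4 control libraries (open symbols control, filled symbols Med23 CKO). The 10 genes, the macrophage lineage list and the disease-associated list have KO_214 far to the right and WT_220 and KO_117 far to the left, and the endothelial and mural lists also have KO_214 at the right end.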

How the data were processed

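RNA-seq libraries were prepared by the authors from 8-day primary neurospheres, 1 mouse each (4 control, 3 Med23 CKO). Adapters were removed with cutadapt 1.12, reads were aligned to mm10 with TopHat, and Cuffdiff gave the deposited FPKM per gene and library. The deposited table also holds group means and the authors' own log2 fold change, test statistic, p-value and q-value, none of which was used. Libraries were matched to mice by title, and 0 columns of samples were left unmatched. Mouse numbers differ between groups, so mice are separate replicates. The study gives 3 mice per group without naming the controls used, and all 4 control libraries were kept.

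No steps of single fragments could be read from low FPKM values (between any 2 of the libraries, 21 pairs in all, no 0.05-wide log2 bin took over 4.56% of the ratios of low genes), so the depth of each library is unknown and no counting interval is given. Genes with a mean of at least 0.5 FPKM (14151) were tested on log2(FPKM + 1) by limma 3.58.1 (lmFit, eBayes with trend) in R 4.3.3, two-sided, with Benjamini-Hochberg adjustment, after the script was tested on simulated data. This pseudocount of 1 understates changes of low genes such as Aif1 and Mrc1. Single values were compared by the exact permutation test over 35 splits (scipy 1.17.1). Genes were placed with GENCODE M21 on GRCm38, the assembly of mm10, and promoters came from RefSeq (GRCm38.p6). From the 14 other gene lists, the text names genes with an unadjusted p under 0.05, up to 3 with the highest mean FPKM and, for other cell types, genes near 0. Others (Syk, Cst7, Cx3cr1, P2ry12, Tmem119 and Sox2) were named after their values were seen. Up to 3 genes most like each member are named. Members and lists were chosen with earlier results of these data known. A result for 1 gene of these lists is not reported here.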

Additional observations from a re-analysis of the deposited data

How the results depend on the processing

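No test called any of the 10 genes at an adjusted p under 0.05 in any of the settings tried, which were another pseudocount, no filter or a filter of mean FPKM of at least 1, quantile normalization, median centring, limma without trend or robust, array weights, exact permutation per gene, the mouse number class as a covariate, the macrophage lineage mean as a covariate, and each library left out. The direction was the less stable part. Without KO_214 the log2 fold change was -0.49 for Trem2, -0.37 for Tyrobp, -0.76 for Apoe, -0.71 for Spp1, -0.34 for Cd68, -0.29 for Adgre1, -0.39 for Aif1, -0.28 for Mrc1 and -0.45 for Gpnmb, and without WT_220 it was -0.23 for Apoe. Over all libraries left out in turn it ran from -0.49 to 1.78 for Trem2, -0.37 to 2.06 for Tyrobp, -0.76 to 1.05 for Apoe, -0.71 to 2.42 for Spp1, 0.21 to 2.18 for Lpl, -0.34 to 1.98 for Cd68, -0.29 to 2.11 for Adgre1, -0.39 to 1.501 for Aif1, -0.28 to 1.05 for Mrc1 and -0.45 to 2.04 for Gpnmb. With the lineage mean as a covariate it was -0.22 for Trem2, -0.18 for Tyrobp, -0.60 for Apoe, -0.46 for Spp1, -0.10 for Cd68, -0.16 for Aif1, -0.047 for Mrc1 and -0.24 for Gpnmb. Array weights, which gave KO_117 and KO_214 the lowest weights (0.301 and 0.441), lowered the median over the 10 from 0.84 to 0.34, and the log2 ratio of group mean FPKM, chosen after seeing the data, raised it to 1.73, since a mean of FPKM is led by KO_214.

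Counts of genes moved more. At an adjusted p under 0.05 limma called 0 genes of the table, and 0 to 1 with a library left out (1 without KO_214 and 1 without KO_218, neither of them 1 of the 10). At an unadjusted p under 0.05, 71 genes were higher (140 with no filter, 193 with array weights, 45 to 354 with a library left out) and 141 lower (887 with array weights, 70 to 410 with a library left out). Among the 10, 0 were higher (0 to 1 with a library left out, which was Lpl without KO_117) and 0 lower (1 with the lineage covariate, which was Apoe). Of the 146 list genes tested, 2 were higher (4 with median centring, 2 to 18 with a library left out) and 0 lower (2 with array weights, 0 to 4 with a library left out). The cause of these shifts was not tested. No paired analysis was possible because the labels do not give the litter of each mouse. The number of mice limits the precision, and depth is unknown.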
